A study of Mus musculus with 12 samples.

Results

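The comparison set 4 mouse tumours labelled leiomyosarcoma, the columns headed as soft tissue sarcoma in the deposited table, against 2 samples of normal bone marrow. These 6 samples were chosen by their column labels out of 12 in the series. The other 6 were 2 normal muscles and 4 osteosarcomas, used here only where they show how a difference from marrow relates to another normal tissue or another sarcoma. All 12 samples, the normal tissues included, carry the genotype label p53 flow/flox. The mice were transgenic with a p53 mutation and were followed until a tumour could be seen or a limb was paralysed, no treatment was given, and tissue was fresh frozen. No recombinase, promoter, age or sex is named, and bone marrow is not the tissue in which a smooth muscle tumour arises, so the comparison describes 2 different tissues. A bone marrow and a muscle sample carry the same animal code, and no tumour shares a code with a marrow. Nothing states that every sample is a separate animal, so the p-values measure the spread between samples. That spread is pooled over all 12 samples, so differences among the muscles and among the osteosarcomas enter each p-value too.

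Leiomyosarcoma is a malignant tumour of soft tissue with features of smooth muscle, the contractile cell type of vessel and organ walls, and it is recognised by contractile proteins such as smooth muscle actin, calponin, smooth muscle myosin and desmin. Bone marrow is the organ in which neutrophils, red cells, platelets and B lymphocytes are made from stem cells, and each lineage fills its cells with a few very abundant transcripts: granule proteins, globins, platelet chemokines and pre-B-cell receptor chains. Tumour tissue holds tumour cells together with macrophages, vessels, fibroblasts and blood, while marrow holds little fibrillar matrix. In whole-tissue samples of this kind, fewer cells of a type and less RNA per cell cannot be told apart.

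RNA was measured on Illumina bead arrays in one colour, with 45281 probes each. Levels are normalised log2 signals, where 1 unit is a doubling, and are listed in the order of tumours 1 to 4 and marrows 1 and 2. Differences are tumour mean minus marrow mean on the log2 scale, with the moderated standard error (SE) of a limma model fitted to all 12 arrays. The SE therefore also carries the spread among the muscles and among the osteosarcomas, and it can exceed the spread of the samples compared. A gene was called higher or lower at an adjusted p under 0.05 (limma, Benjamini-Hochberg over all genes tested) and a difference of at least 1. Where the printed probe of a gene was undetected (detection p of at least 0.05) in every sample of one group, the change is a bound, written "at least N-fold" and set by the lowest detected signal. This holds for the comparisons with osteosarcoma and muscle too, while list medians and plotted differences are fitted values. The arrays detected 14749 to 15314 probes in marrow and 16235 to 18100 in the tumours. Pairwise correlations across the genes tested were 0.946 to 0.974 among the tumours, 0.983 between the marrows and 0.737 to 0.753 between the groups. The arrays of tumours 3 and 4 had a higher background constant (110.1 and 107) than those of tumours 1 and 2 and of both marrows (81.2 to 84.2), and its part in the results was not tested beyond a fit with background level as a block. That fit rests on the low-background arrays, tumours 1 and 2 against both marrows, and the fit to those arrays gave the same counts, 1635 genes higher and 1378 lower.

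Of 11754 genes tested, 1788 were higher in leiomyosarcoma (15.2%) and 1488 were lower (12.7%), 27.9% in all, around a median difference over all genes of 0.00245. The groups did not overlap in 3459 genes that were higher (29.4%) and 3415 that were lower (29.1%). The far ends of the distribution were unequal in number, with 242 genes higher by at least 4 log2 and 111 lower by as much. Some 898 genes (7.64%) were detected in all 4 tumours and in neither marrow, and 259 (2.2%) in both marrows and in no tumour. These counts are not like measures, since a gene must be missed on more arrays to be undetected in all 4 tumours. The tumour arrays also detected more probes. Marrow was not the only normal tissue that many of the called genes differed from. Of all genes tested, 879 (7.48%) were higher and 228 (1.94%) lower than both marrow and muscle. Others fell between the normal tissues, with 345 lower than marrow but higher than muscle and 137 higher than marrow but lower than muscle, in comparisons that share the tumours. Gene lists for cell types and pathways placed marrow lineages at one end and matrix genes at the other, as the plot of every list member shows. The list counts below stand against the shares of all genes, 15.2% higher and 12.7% lower.

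**Figure D1:**
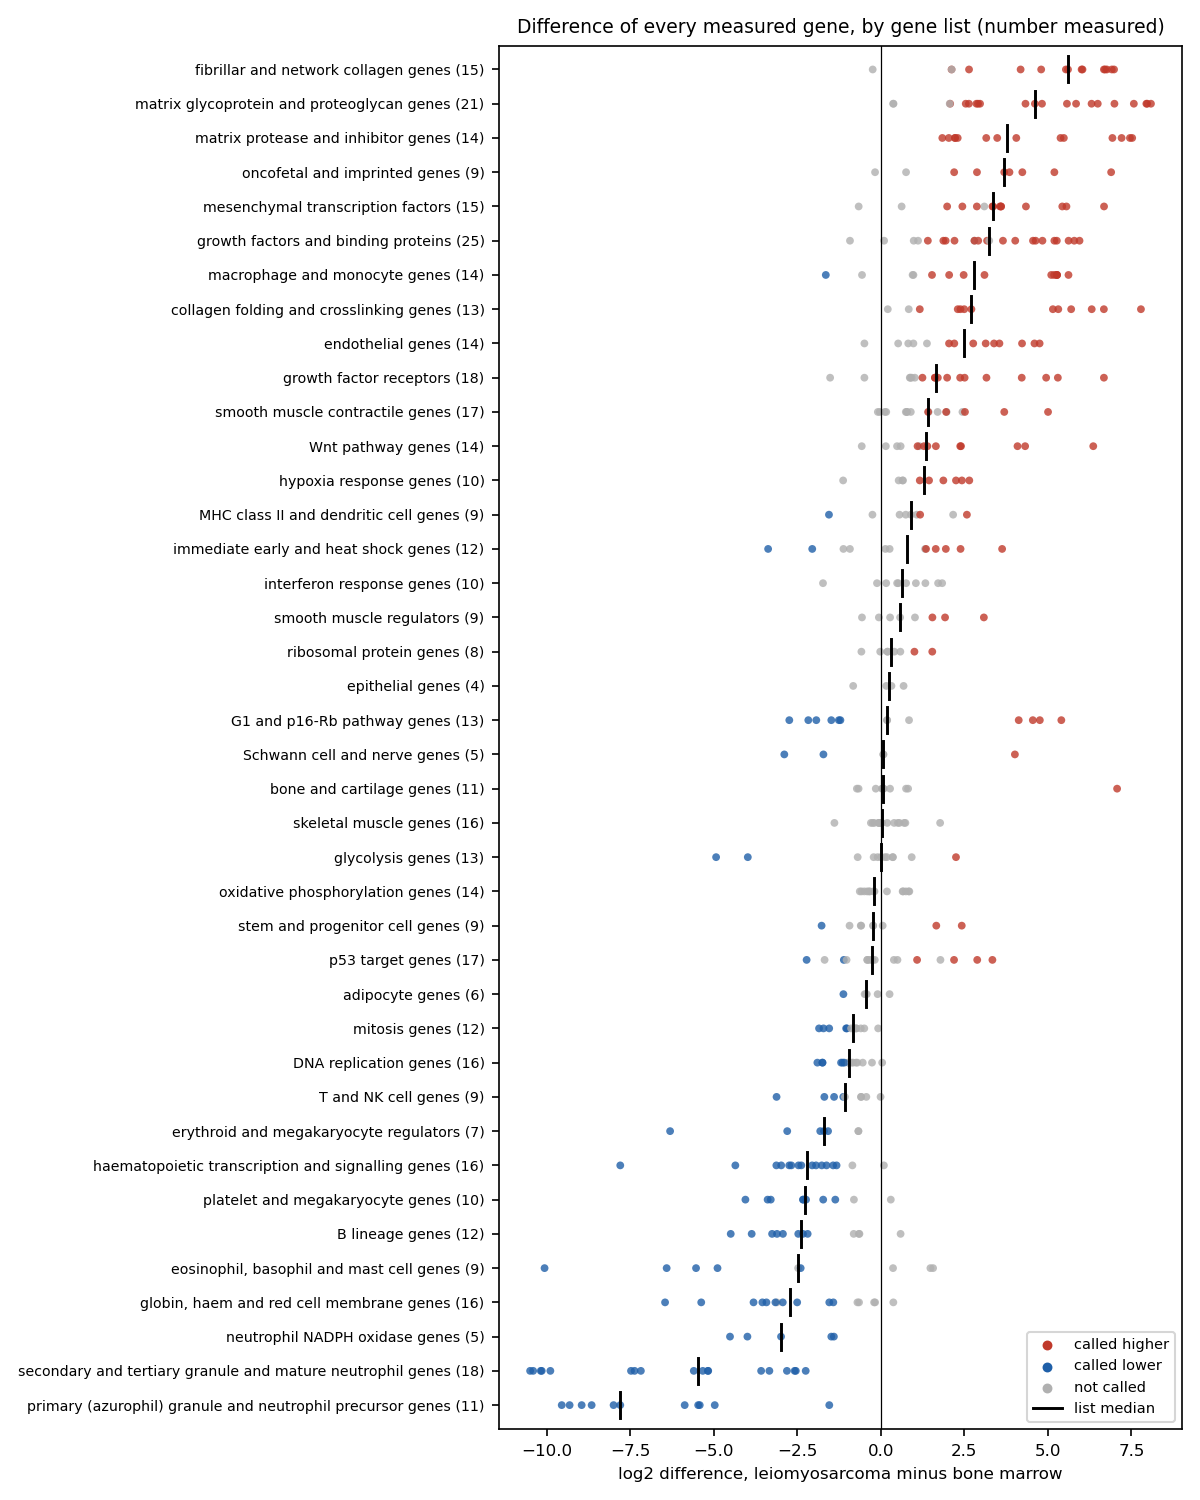
Log2 difference between leiomyosarcoma (n = 4) and bone marrow (n = 2) for every measured gene of 40 gene lists, 1 point per gene, ordered by list median (black bar), with red for called higher, blue for called lower and grey for not called. Neutrophil granule lists lie lowest, with medians of -7.80 and -5.47, and collagens highest, with a median of 5.60.

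Neutrophil granule genes were among the largest falls. All 11 measured genes of primary granules and neutrophil precursors were lower in the tumours, with a median difference of -7.80, where 12.7% of all genes were lower. Mpo, the myeloperoxidase that makes hypochlorous acid, was at 5.20, 6.13, 5.74 and 7.15 in the tumours and at 15.54 and 15.68 in the marrows. Its difference was -9.55 ± 0.47 (adjusted p 4.47e-08), and tumour 4 was the highest of the tumours while the groups stayed far apart. Mpo was also lower in leiomyosarcoma than in osteosarcoma, a difference of -3.12 ± 0.39 (adjusted p 0.000514), in a comparison where 3.31% of all genes were lower. Elane, which encodes neutrophil elastase, was at 5.36, 5.46, 5.55 and 5.09 in the tumours and at 14.61 and 14.76 in the marrows. It fell by 9.32 (SE 0.19, adjusted p 6.21e-11), and its promoter is shown here with that of its chromosomal neighbour Prtn3. Prtn3 encodes proteinase 3 and was at 5.89, 5.52, 5.02 and 5.14 in the tumours and at 13.99 and 14.70 in the marrows, a difference of -8.96 ± 0.29 (adjusted p 1.39e-09). Ctsg, encoding cathepsin G, was undetected in all 4 tumours and at least 274-fold lower. The transcription factors of the granulocyte line fell as well. Cebpe, needed for granule gene expression, had a difference of -7.80 ± 0.20, and Gfi1, a repressor that directs granulocyte fate, was undetected in the tumours and at least 25.9-fold lower.

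The promoter stretches of both genes, taken as the 200 bases before the RefSeq gene start (build GRCm38.p6, plus strand, chr10:79886112-79886311 for Elane and chr10:79879467-79879666 for Prtn3), are printed because both genes fell together and both stretches hold the letters GAGGAAGT, printed in capitals, which contain the core of a site for ETS factors such as PU.1.
Elane: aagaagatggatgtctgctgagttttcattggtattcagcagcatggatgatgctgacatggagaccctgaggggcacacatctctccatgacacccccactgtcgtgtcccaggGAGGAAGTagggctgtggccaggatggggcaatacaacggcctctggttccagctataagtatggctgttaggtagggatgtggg
Prtn3: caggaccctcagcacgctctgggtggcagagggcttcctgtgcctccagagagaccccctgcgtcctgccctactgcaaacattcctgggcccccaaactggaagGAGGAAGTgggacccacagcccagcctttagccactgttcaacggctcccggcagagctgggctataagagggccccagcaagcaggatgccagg
The match begins 85 bases before the start in Elane and 95 before it in Prtn3.
Promoters of 300 bases (250 before to 50 after the start) were searched on both strands for 8 motifs: GAGGAAGT, GAGGAA (which lies within it), TTGCNNAA, TTGCGCAA (which is one form of it), AGATAA, the CArG box, GGGCGG and TATAAA. Of 9463 genes with a promoter sequence, 3.74% held GAGGAAGT, against 14 of 87 genes (16.1%) called lower by at least 4 log2 and 5 of 176 (2.84%) called higher by as much. It was present in 3 of 8 primary granule genes and 4 of 17 secondary granule genes with a promoter, and in 0 of 12 collagens. The letters TTGCNNAA, a relaxed form of the C/EBP site, were in 10.9% of all promoters and in 25.3% of those lower by at least 4. The GC-rich GGGCGG was in 64.9% of all and in 35.6% of those lower by at least 4. The shorter GAGGAA was more frequent on both sides, in 51.7% of genes lower by at least 4 and 40.3% of those higher by as much, against 30.8% of all. TATAAA was too, in 17.2% and 19.9%, against 10.3% of all. The motifs described were chosen after the counts were seen, no test was made, and a match shows letters, not binding.

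Genes of secondary and tertiary granules and of mature neutrophils were lower throughout, 18 of 18 measured with a median of -5.47. Ltf (lactoferrin) and Lcn2 (lipocalin 2), both iron-withholding proteins, differed by -10.50 ± 0.34 and -10.41 ± 0.41. Ngp, the neutrophilic granule protein, was at 4.87, 4.997, 4.82 and 4.68 in the tumours and at 15.00 and 14.98 in the marrows. No tumour detected it, and it was at least 878-fold lower (adjusted p 6.21e-11). Camp, the cathelicidin precursor, was at least 703-fold lower and Retnlg, a resistin-like protein of granulocytes, at least 678-fold. S100a8, a subunit of the calcium-binding protein calprotectin, was at 7.34, 8.79, 8.18 and 8.80 in the tumours and at 15.39 and 15.54 in the marrows. It remained detected in every tumour while differing by -7.18 ± 0.78 (adjusted p 2.31e-05), and its partner S100a9 differed by -7.37 ± 0.92. Cxcr2, the receptor through which neutrophils follow chemokines, was undetected in the tumours and at least 24.1-fold lower. Csf3r, the receptor for granulocyte colony-stimulating factor, was at 6.03, 6.18, 6.19 and 6.17 in the tumours and at 9.89 and 9.56 in the marrows. It differed by -3.58 ± 0.19, and the 4 tumours lay within a narrow band. Mmp9, a gelatinase of tertiary granules, was at 9.49, 10.20, 11.88 and 10.69 in the tumours and at 13.43 and 13.32 in the marrows, a difference of -2.81 ± 0.96 (adjusted p 0.0391) that lost its call without tumour 1, 2 or 4 or either marrow (adjusted p 0.0636 to 0.162).

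The NADPH oxidase, which makes the neutrophil's oxidative burst, fell in all 5 measured genes. Rac2, the small GTPase that switches it on in blood cells, was at 6.70, 6.76, 6.78 and 6.78 in the tumours and at 11.27 and 11.27 in the marrows and differed by -4.52 ± 0.53 (adjusted p 4.49e-05). Ncf1 and Ncf4, cytosolic subunits, differed by -3.99 ± 0.43 and -2.99 ± 0.49. The membrane subunit Cyba, which other cells share, had the smallest difference of the 5, -1.41 ± 0.42 (adjusted p 0.0212), and lost its call without either marrow (adjusted p 0.0875 and 0.130).

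**Figure D2:**
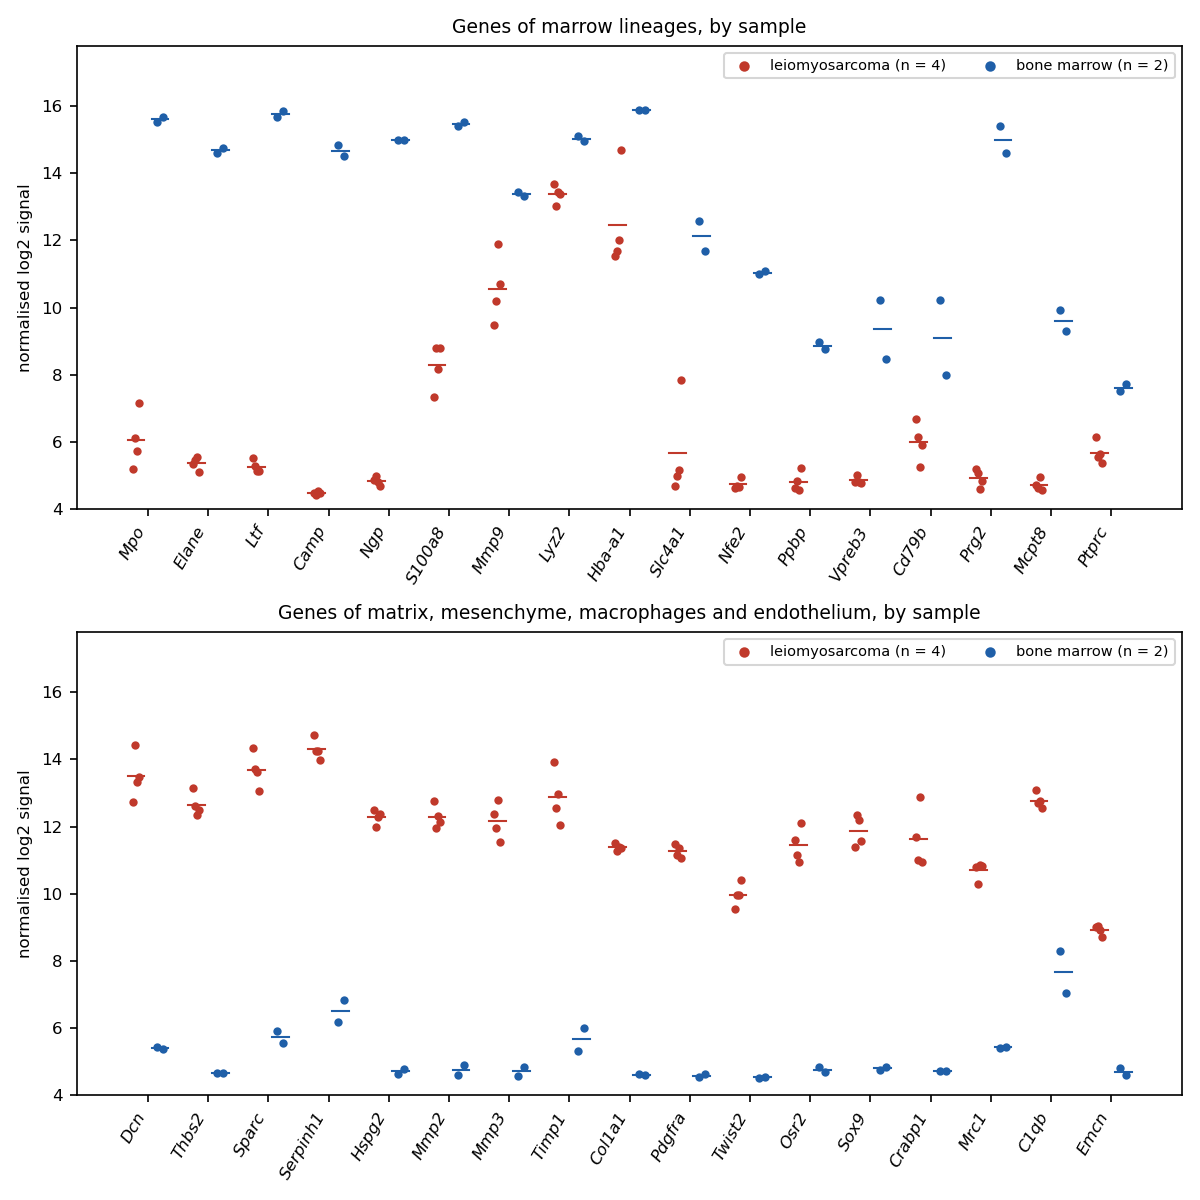
Normalised log2 signal of 34 genes in each sample, with 1 point per sample and a line at each group mean, for genes of marrow lineages (top) and of matrix, mesenchyme, macrophages and endothelium (bottom). Neutrophil genes such as Ngp lie near 15 in both marrows and near 5 in the tumours, and matrix genes such as Hspg2 lie near 12 in the tumours and under 5 in the marrows, while Hba-a1 and Slc4a1 show 1 tumour apart from the other 3.

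Red cell genes were lower in 10 of 16 measured cases (7 without marrow 1 or without marrow 2), with a median of -2.72. With log2 quantile scaling 7 were lower and the median was -1.64, and 7 were also lower with the unsubtracted table, where the median was -1.45. The mean level of the list was 6.89, 6.94, 7.02 and 7.81 in tumours 1 to 4 and 9.85 and 9.31 in the marrows. Slc4a1, the band 3 anion exchanger of the red cell membrane, was at 4.70, 4.99, 5.17 and 7.86 in the tumours and at 12.59 and 11.69 in the marrows, a difference of -6.46 ± 0.74 (adjusted p 3.59e-05). Alas2, the erythroid enzyme that starts haem synthesis, was at 4.74, 4.79, 5.34 and 8.02 in the tumours and at 11.76 and 10.44 in the marrows and differed by -5.38 ± 0.94 (adjusted p 0.000838). Hba-a1, an alpha-globin gene whose probe may also read its near-identical copy, was at 11.52, 11.67, 12.002 and 14.68 in the tumours and at 15.89 and 15.89 in the marrows. In all 3 genes tumour 4 was the highest tumour, and in none did the groups overlap. The differences without tumour 4 were -7.18 for Slc4a1, -6.14 for Alas2 and -4.16 for Hba-a1. Alas2 also moved with the marrow left out, to -4.72 without marrow 1 and -6.04 without marrow 2. With all samples Hba-a1 differed by -3.43 ± 1.20 (adjusted p 0.0430), and its call was lost without any 1 of the other 5 samples (adjusted p 0.0836 to 0.173). The beta-globin gene Hbb-bt, -3.11 ± 1.22, did not pass (adjusted p 0.0664), though it did without tumour 4 (-3.82, adjusted p 0.0282). Of the 16, 5 were undetected in all 4 tumours, among them Car1, a carbonic anhydrase (at least 11.1-fold lower), and Kel, a blood group protease (at least 6.33-fold). Enzymes of haem synthesis that all cells need did not pass, with Alad at 0.37 ± 0.33 and Urod at -0.17 ± 0.24. The blood content of the tumour samples, tumour 4 included, was not tested.

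The promoter stretch of Alas2 (200 bases before the start, build GRCm38.p6, chrX:150547217-150547416, plus strand) is shown because it holds the GATA-factor motif AGATAA on the opposite strand, read here as its complement in capitals, beginning 86 bases before the start.
Alas2: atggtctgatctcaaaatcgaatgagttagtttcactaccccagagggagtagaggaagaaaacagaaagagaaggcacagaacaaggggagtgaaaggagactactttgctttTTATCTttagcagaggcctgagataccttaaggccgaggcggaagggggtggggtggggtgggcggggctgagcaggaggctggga
AGATAA was in 4 of 11 red cell genes with a promoter, against 8.22% of all promoters.

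Regulators and platelet genes moved in the same direction. Of 7 erythroid and megakaryocyte regulators 5 were lower, or 3 with the unsubtracted table, where 12.7% of all genes were lower. Nfe2, which drives platelet formation and globin expression, was undetected in the tumours and at least 56.9-fold lower, and Klf1, the erythroid Kruppel-like factor, differed by -2.80 ± 0.26. Lmo2 stayed detected in every sample, at 10.20, 10.003, 9.94 and 9.94 in the tumours and at 11.95 and 11.72 in the marrows, and differed by -1.81 ± 0.20. Among platelet genes 8 of 10 were lower with a median of -2.28. Ppbp, a platelet chemokine, differed by -4.05 ± 0.27, and Gp5 and Tubb1, a receptor subunit and the platelet tubulin, were at least 8.08-fold and 6.55-fold lower. Pf4, another platelet chemokine, was not called. It was at 10.68, 10.51, 10.37 and 10.58 in the tumours and at 10.38 and 10.10 in the marrows, so the groups overlapped, with a difference of 0.30 ± 0.50 (adjusted p 0.687). It was higher than in osteosarcoma by 1.98 ± 0.41 (adjusted p 0.00967), where 4.34% of all genes were higher.

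B-lineage genes were lower in 8 of 12 cases with a median of -2.40, where 12.7% of all genes were lower. The marrows themselves were unequal here, with a mean level over the list of 8.07 in marrow 1 and 6.69 in marrow 2, against 5.06 to 5.30 in the tumours. Vpreb3, a part of the pre-B-cell receptor machinery, was at 4.81, 5.03, 4.79 and 4.79 in the tumours and at 10.23 and 8.47 in the marrows. No tumour detected it, and it was at least 17.6-fold lower (adjusted p 2.24e-06), a bound of 9.55-fold without marrow 1 and 32.3-fold without marrow 2. Vpreb1, a surrogate light chain, was at 4.66, 4.53, 4.53 and 4.77 in the tumours and at 8.17 and 6.01 in the marrows. It too was undetected in every tumour and was at least 3.68-fold lower (adjusted p 0.000741), or 1.74-fold without marrow 1 and 7.78-fold without marrow 2. Cd79b, the signalling chain of the B-cell receptor, was at 6.67, 6.15, 5.24 and 5.90 in the tumours and at 10.22 and 7.98 in the marrows, and stayed detected in each tumour. It differed by -3.11 ± 0.52, or -1.99 without marrow 1 and -4.23 without marrow 2. Ebf1, a B-cell factor that stromal cells also express, differed by 0.59 ± 0.26 and was not called.

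T and NK cell genes were lower in 4 of 9 cases (2 with log2 quantile scaling, the unsubtracted table or marrow 1 left out), with a median of -1.08. Over all genes 12.7% were lower. Cd27, a co-stimulatory receptor, differed by -3.12 ± 0.36. Cd4, detected in 1 marrow only (adjusted p 0.163), and Cd247 (the T-cell receptor zeta chain), at -0.01 ± 0.33, were not called. Among genes of eosinophils, basophils and mast cells 5 of 9 were lower. Prg2, the eosinophil major basic protein, was at 5.21, 5.09, 4.61 and 4.83 in the tumours and at 15.41 and 14.59 in the marrows. It was undetected in the tumours and at least 883-fold lower (adjusted p 3.34e-10), as were the eosinophil peroxidase Epx (at least 34.9-fold) and the basophil protease Mcpt8 (at least 21.1-fold). The mast cell proteases, which were not called, are described with the tumour-by-tumour values.

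Blood-cell transcription and signalling genes were lower in 14 of 16 cases with a median of -2.22. Ptprc, the CD45 phosphatase found on all white cells, was at 6.15, 5.55, 5.64 and 5.39 in the tumours and at 7.52 and 7.72 in the marrows. It remained detected in every tumour at a difference of -1.94 ± 0.29 (adjusted p 0.000262). Spi1, which encodes PU.1, differed by -2.46 ± 0.42, Ikzf1 (Ikaros) by -3.13 ± 0.39, the kinase gene Btk by -2.68 ± 0.22, and the Src-family kinase gene Fgr by -4.36 ± 0.33. Laptm5, a lysosomal protein of blood cells, was at 13.14, 13.16, 13.19 and 12.81 in the tumours and at 13.89 and 13.96 in the marrows, a difference of -0.85 ± 0.30 under the size threshold. Runx1 was not called (0.09 ± 0.84, adjusted p 0.950). Of 9 stem and progenitor cell genes 2 were higher, 1 was lower and 6 were not called, with a median of -0.23. These counts were near the shares of all genes, 15.2% higher and 12.7% lower. Kit, the stem cell factor receptor, was lower (-1.77 ± 0.36). Cd34, a sialomucin of progenitors and of endothelium, was higher (2.42 ± 0.43), as was Sox4 (1.66 ± 0.39, a call lost without marrow 2).

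Macrophage genes, in contrast, were higher in the tumours. Of 14 measured, 10 were higher and 1 was lower, with a median of 2.79, where 15.2% of all genes were higher. The complement gene C1qa was at 10.41, 9.73, 10.18 and 10.03 in the tumours and at 4.96 and 4.68 in the marrows. No marrow detected it, and it was at least 24.5-fold higher (adjusted p 6.19e-06), and C1qc differed by 5.19 ± 0.64. C1qb differed by 5.10 ± 0.64, or 5.73 and 4.47 without marrow 1 and 2. Mrc1, the macrophage mannose receptor, was at 10.81, 10.28, 10.86 and 10.83 in the tumours and at 5.42 and 5.43 in the marrows and at least 37.3-fold higher. It was also 2.44 ± 0.52 above osteosarcoma (adjusted p 0.0114). Csf1r, the receptor on which macrophages depend, was at 11.45, 11.11, 11.13 and 11.23 in the tumours and at 9.28 and 9.10 in the marrows, a difference of 2.04 ± 0.43 (adjusted p 0.00282) shared by 4 tumours of nearly equal level. Trem2, a lipid-sensing receptor, differed by 3.10 ± 0.48, and Adgre1, which encodes F4/80, by 2.48 ± 0.58 (adjusted p 0.0742 without marrow 2). Fcrls, an Fc receptor-like gene named among the largest rises, was at 12.51, 12.31, 12.62 and 12.05 in the tumours and at 4.56 and 4.77 in the marrows. By this probe, which neither marrow detected, it was at least 119-fold higher (adjusted p 2.08e-05), and its other probes differed by 3.38 to 6.13. Lyz2, the lysozyme of both macrophages and neutrophils, was the 1 lower member, -1.65 ± 0.50 (adjusted p 0.0235), and lost its call without tumour 2 or either marrow (adjusted p 0.0501 to 0.129). The mean level of the list was 10.31 to 10.44 in the tumours and 7.28 and 7.67 in the marrows, and the part of macrophage content in other differences was not tested.

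MHC class II genes, which present antigen to T cells, varied among the tumours. The counts of calls over their list were near the shares of all genes, 15.2% higher and 12.7% lower. H2-Ab1 was at 13.45, 13.73, 12.05 and 11.08 in the tumours and at 10.97 and 9.03 in the marrows, a difference of 2.58 ± 0.86 (adjusted p 0.0340). Tumours 1 and 2 were the highest, and the call was lost without tumour 1 or 2 or marrow 2 (adjusted p 0.0749, 0.0740 and 0.329), while the difference was 3.54 without marrow 1. Cd74, the invariant chain, was at 13.20, 14.01, 12.30 and 11.88 in the tumours and at 11.86 and 9.50 in the marrows, and at 2.16 ± 0.81 it did not pass (adjusted p 0.0556), though it did without tumour 4 or marrow 1 (adjusted p 0.0437 and 0.0271). Siglech, a marker of plasmacytoid dendritic cells, was lower at -1.55 ± 0.44, but not without marrow 1 (-0.92, adjusted p 0.235) and at -2.19 without marrow 2. Over the 9 genes 2 were higher and 1 was lower, with 0 to 4 higher under the alternatives.

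Matrix genes held the largest rises. Of 15 collagen genes 13 were higher with a median of 5.60, where 15.2% of all genes were higher. Of 21 matrix glycoproteins and proteoglycans 18 were higher with a median of 4.61. Of 14 matrix proteases and inhibitors all 14 were higher with a median of 3.77. That list leaves out Mmp8 and Mmp9, which were counted with the neutrophil genes and were lower. Col1a1, the main chain of type I collagen, was at 11.52, 11.26, 11.39 and 11.36 in the tumours and at 4.62 and 4.61 in the marrows. Neither marrow detected it, it was at least 60.1-fold higher (adjusted p 1.90e-06), and its difference from osteosarcoma, a bone-forming tumour, was -3.11 ± 0.44 (adjusted p 0.00117). Col3a1, a collagen of soft tissue, was at least 36.2-fold higher. Of the basement membrane genes, Col4a1 differed by 6.71 ± 0.41 and Col18a1 was at least 84.6-fold higher than marrow (adjusted p 4.02e-07) and also higher than in osteosarcoma (1.70 ± 0.37, adjusted p 0.0129). Col11a1, a cartilage collagen, was not called (-0.24 ± 0.27).

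Among the proteoglycans, Dcn (decorin), which binds collagen fibrils, was at 12.74, 14.44, 13.34 and 13.47 in the tumours and at 5.45 and 5.37 in the marrows. Its difference of 8.09 ± 0.61 (adjusted p 1.23e-06) was the largest rise of a named gene, and the levels of the 4 tumours all lay over 7 log2 units above both marrows. Sparc, a calcium-binding matrix protein, was at 14.35, 13.71, 13.61 and 13.05 in the tumours and at 5.92 and 5.55 in the marrows, a difference of 7.95 ± 0.47. Thbs2, a thrombospondin that restrains vessel growth, was at 13.14, 12.60, 12.35 and 12.48 in the tumours and at 4.68 and 4.66 in the marrows and at least 144-fold higher. Hspg2 (perlecan), a proteoglycan of basement membranes, was at 12.49, 11.98, 12.29 and 12.39 in the tumours and at 4.65 and 4.78 in the marrows, undetected in marrow and at least 112-fold higher (adjusted p 3.37e-10). The fibulin Fbln2 was at least 75.5-fold higher than marrow and 3.08 ± 0.52 above osteosarcoma (adjusted p 0.00329). Tnc (tenascin C) was at 13.51, 9.25, 11.49 and 12.29 in the tumours and at 5.87 and 5.71 in the marrows, with tumour 2 the lowest. It differed by 5.84 ± 0.93, or 6.64 without tumour 2 and 5.22 without tumour 1. Lum (lumican) was at 11.28, 5.87, 11.48 and 11.07 in the tumours and at 5.39 and 4.81 in the marrows, near marrow in tumour 2 alone. Neither marrow detected it, and it was at least 21.9-fold higher (adjusted p 0.0356), or 55.7-fold without tumour 2. The call was lost without any other 1 sample (adjusted p 0.0760 to 0.178) and with background level as a block (adjusted p 0.174). Eln (elastin), undetected in marrow and at least 2.90-fold higher, did not pass (adjusted p 0.0885) and was called only without tumour 2 among the samples left out (adjusted p 0.0313). Thbs1, detected in 2 tumours and no marrow, was not called (adjusted p 0.205).

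The machinery that folds and cross-links collagen rose with it, in 11 of 13 genes with a median of 2.71. Serpinh1, the collagen chaperone HSP47, was at 14.72, 14.25, 14.25 and 13.98 in the tumours and at 6.19 and 6.84 in the marrows, a difference of 7.79 ± 0.41 (adjusted p 6.69e-08). P4ha2, a prolyl hydroxylase, was at least 24.2-fold higher, Pcolce, which enhances procollagen cleavage, at least 48.4-fold, and Lox, which cross-links collagen and elastin, at least 19.8-fold. Of the 13, 6 were lower than in osteosarcoma, with P4ha2 at -1.48 ± 0.24 (adjusted p 0.00293) and Crtap at -1.52 ± 0.23 (adjusted p 0.00161).

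Of the matrix proteases, Mmp2 (gelatinase A) was at 12.75, 11.96, 12.32 and 12.12 in the tumours and at 4.61 and 4.92 in the marrows, undetected in marrow and at least 113-fold higher (adjusted p 5.20e-08). Mmp3 (stromelysin 1) was at 12.37, 11.95, 12.80 and 11.53 in the tumours and at 4.56 and 4.85 in the marrows and at least 103-fold higher. It was 5.71 ± 0.61 above osteosarcoma (adjusted p 0.000166) and above muscle by 3.91 (adjusted p 0.00116), where 20.1% of all genes were higher than muscle. Mmp14, a membrane-bound activator of Mmp2, differed by 6.93 ± 0.49, and Timp1, an inhibitor of these enzymes, by 7.21 ± 0.47. Mmp13, a collagenase of bone and cartilage, was higher than marrow by 4.05 ± 0.38 and lower than osteosarcoma, -4.87 ± 0.31 (adjusted p 3.10e-06). The neutrophil enzymes Mmp8 and Mmp9, in contrast, were lower than marrow, so members of 1 enzyme family stood on both sides.

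Mesenchymal transcription factors were higher in 12 of 15 cases with a median of 3.36. Twist2, a factor of mesenchymal precursors, was at 9.53, 9.96, 9.96 and 10.40 in the tumours and at 4.51 and 4.56 in the marrows. Neither marrow detected it, it was at least 22.4-fold higher (adjusted p 2.51e-08), and it was at least 26.6-fold above osteosarcoma, which did not detect it either (adjusted p 7.14e-08). Its relative Twist1 differed from marrow by 2.44 ± 0.26 and from osteosarcoma by 0.33 (adjusted p 0.369). Osr2, a zinc finger factor of limb and palate mesenchyme, was at 11.60, 11.14, 10.94 and 12.09 in the tumours and at 4.83 and 4.70 in the marrows, at least 62.7-fold above marrow and 4.30 ± 0.81 above osteosarcoma (adjusted p 0.00602). Wwtr1, which encodes the Hippo pathway effector TAZ, was at least 36.3-fold higher, and its partner Tead1 at least 17.1-fold. Yap1, its relative, was at 7.61, 7.38, 7.85 and 7.47 in the tumours and at 4.41 and 4.55 in the marrows. The groups did not overlap, neither marrow detected it and it was at least 4.30-fold higher, but in the model over 12 arrays this did not pass (adjusted p 0.0928), while it did in a fit to the 6 arrays alone. Snai1 and Snai2, repressors of epithelial adhesion genes, were at least 7.51-fold and 7.39-fold higher (adjusted p 9.28e-05 and 8.46e-06). Zeb2 was not called (-0.66 ± 0.31).

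Growth factor receptors were higher in 12 of 18 cases with a median of 1.66. Pdgfra, a receptor of mesenchymal cells, was at 11.47, 11.14, 11.35 and 11.06 in the tumours and at 4.54 and 4.62 in the marrows, undetected in marrow and at least 55.0-fold higher (adjusted p 3.29e-05). Axl, a receptor tyrosine kinase for the ligand Gas6, was at 12.60, 11.91, 13.12 and 12.83 in the tumours and at 7.75 and 6.88 in the marrows, a difference of 5.30 ± 0.41, and Gas6 itself differed by 2.80 ± 0.36. Egfr was at least 25.5-fold higher (adjusted p 0.000117) by a probe that neither marrow detected, with its other probes differing by 2.26 to 4.55. Ephb4 was at least 12.2-fold higher (adjusted p 1.32e-06). Igf1r, -1.52 ± 0.59, did not pass, except without tumour 3 (-1.79, adjusted p 0.0406). Of 25 growth factors and binding proteins 19 were higher with a median of 3.24. Ptn (pleiotrophin) was at least 37.2-fold higher and Pdgfa at least 22.7-fold. Igfbp6, which binds insulin-like growth factor 2, was at 10.36, 11.51, 10.49 and 10.08 in the tumours and at 5.01 and 4.63 in the marrows. It was at least 35.1-fold above marrow and 5.23 ± 0.44 above osteosarcoma (adjusted p 2.46e-05). Vegfc, a lymphatic growth factor, differed by 4.63 ± 0.61 from marrow and 3.29 ± 0.50 from osteosarcoma (adjusted p 0.00162). Tgfb1 was at 8.51, 8.83, 8.37 and 8.30 in the tumours and at 9.39 and 9.46 in the marrows, a difference of -0.92 ± 0.32 under the size threshold that was -1.03 without tumour 2 (adjusted p 0.0317). Hgf, 0.10 ± 0.31 against marrow, was 2.65 ± 0.25 above osteosarcoma (adjusted p 6.71e-05).

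Wnt pathway genes were higher in 9 of 14 cases, or 5 with the unsubtracted table. Wnt5a, a ligand of the non-canonical pathway, was at 8.93, 8.70, 10.04 and 9.58 in the tumours and at 5.02 and 4.96 in the marrows, at least 14.3-fold higher, and its receptor Ror2 was at 8.92, 8.13, 8.99 and 8.81 in the tumours and at 4.55 and 4.70 in the marrows, at least 9.43-fold higher. Both were also above osteosarcoma, by 2.58 ± 0.54 (adjusted p 0.0108) and 1.74 ± 0.21 (adjusted p 0.000466). Axin2, a target of the canonical pathway, was at least 1.64-fold higher (adjusted p 0.0180), a call lost without marrow 2 (adjusted p 0.179). Dkk3, a secreted Dickkopf relative, was at least 49.8-fold higher.

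Of 17 contractile genes of smooth muscle 10 had every tumour above both marrows, against 29.4% of all genes, and 5 were called higher, where 15.2% of all genes were. The calls were fewer or more under other settings (8 in a fit to the 6 arrays alone, 3 with the unsubtracted table or without marrow 1). The median was 1.41, or 0.90 with undetected genes at their bounds. Acta2, smooth muscle actin, was at 13.31, 11.71, 14.44 and 13.68 in the tumours and at 11.57 and 11.06 in the marrows. The tumours were all above both marrows, though tumour 2 by little, and the difference of 1.97 ± 0.86 did not pass (adjusted p 0.0957). Without tumour 2 it was 2.49 (adjusted p 0.0336), a call. Tagln (transgelin) was at 5.62, 4.62, 5.49 and 5.84 in the tumours and at 4.65 and 4.57 in the marrows, detected in 3 of 4 tumours and in no marrow, and was not called (adjusted p 0.284). Des (desmin) was at 8.41, 8.51, 7.06 and 6.22 in the tumours and at 6.23 and 5.47 in the marrows, a difference of 1.70 ± 1.52 (adjusted p 0.417) with the lowest tumour beside the higher marrow. Cnn1 (calponin), Myh11 (smooth muscle myosin) and Synpo2 (synaptopodin 2) were undetected in all 6 samples, while muscle tissue, which holds vessels, had mean levels of 7.76 for Myh11 and 8.31 for Synpo2. The tumours are therefore called leiomyosarcoma here by their label, with Cnn1 and Myh11, 2 of the 5 defining markers, undetected and none of the 5 called.

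The contractile genes that rose are also expressed in many other cell types. Tpm2 (beta-tropomyosin) was at 9.79, 9.99, 10.48 and 10.85 in the tumours and at 4.99 and 5.55 in the marrows, a difference of 5.005 ± 0.74 (adjusted p 0.000246), and Tpm1 was at 12.94, 12.48, 13.35 and 12.63 in the tumours and at 9.23 and 9.08 in the marrows, a difference of 3.69 ± 0.41. Cald1 (caldesmon) was at least 2.09-fold higher. Myl9, a regulatory myosin light chain, was at 8.63, 8.16, 10.53 and 10.05 in the tumours and at 6.55 and 7.10 in the marrows. Its difference of 2.52 ± 0.83 (adjusted p 0.0336) lost its call without tumour 3 or 4 or either marrow (adjusted p 0.0749 to 0.184) and with background level as a block (1.57, adjusted p 0.186). Synm (synemin) was at least 1.46-fold higher (adjusted p 0.0199) and lost its call without either marrow (adjusted p 0.0875 and 0.121). Actg2, another smooth muscle actin named after its values were seen, was at 9.12, 6.26, 6.81 and 5.83 in the tumours and at 4.62 and 4.51 in the marrows and did not pass (adjusted p 0.0638), though it did without tumour 4 (adjusted p 0.0472). Of 9 smooth muscle regulators 3 were higher. Gata6, a factor of vascular smooth muscle and of heart, was at 8.50, 7.18, 7.02 and 7.67 in the tumours and at 4.54 and 4.48 in the marrows, at least 4.34-fold above marrow and at least 5.15-fold above osteosarcoma, where it was undetected (adjusted p 7.61e-05). Notch3, a receptor of mural cells, was at least 2.16-fold higher than marrow and -1.81 ± 0.22 against osteosarcoma (adjusted p 0.000503). Myocd (myocardin), the co-activator that switches on the contractile genes, was not called (adjusted p 0.884), nor was its partner Srf (-0.57 ± 0.28).

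**Figure D3:**
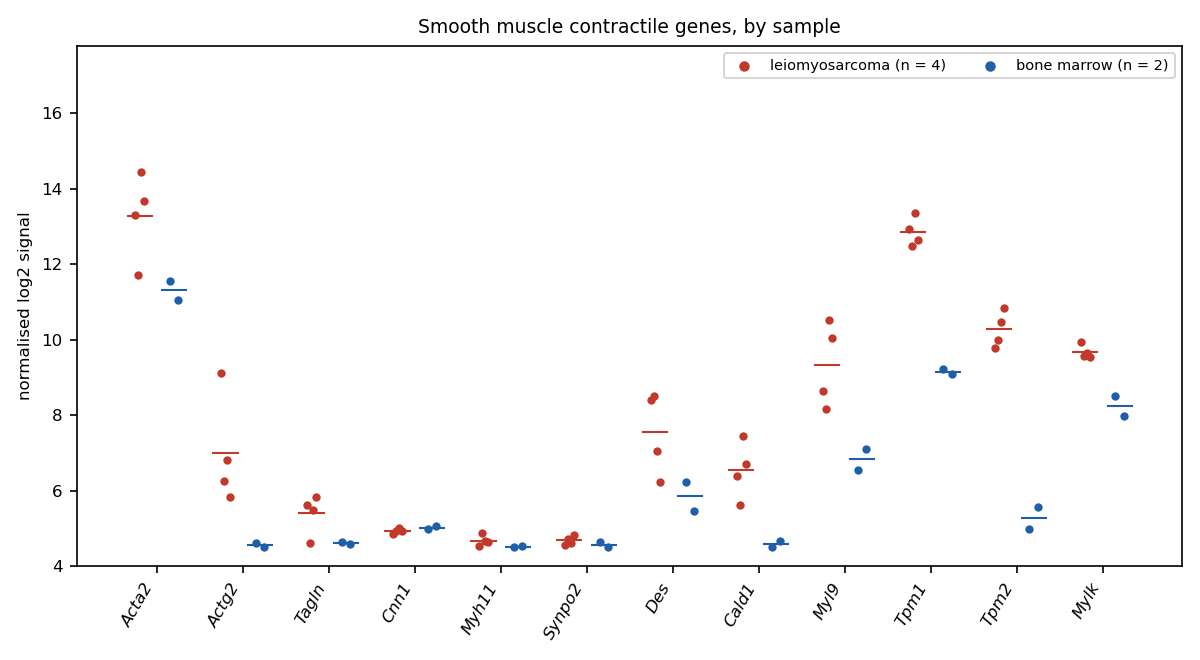
Normalised log2 signal of 12 smooth muscle contractile genes in the 4 leiomyosarcomas and 2 bone marrows, with 1 point per sample and a line at each group mean. Tpm1 and Tpm2 are clear of marrow in every tumour, Acta2 and Des come close to it in 1 tumour, and Cnn1, Myh11 and Synpo2 stay near 5 or below in both groups.

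Serum response factor binds the CArG box, and the stretch of the Myl9 promoter that holds one is shown in capitals, as the single match among 14 contractile genes with a promoter sequence (200 bases before the start, build GRCm38.p6, chr2:156775264-156775463, plus strand, match beginning 161 bases before the start).
Myl9: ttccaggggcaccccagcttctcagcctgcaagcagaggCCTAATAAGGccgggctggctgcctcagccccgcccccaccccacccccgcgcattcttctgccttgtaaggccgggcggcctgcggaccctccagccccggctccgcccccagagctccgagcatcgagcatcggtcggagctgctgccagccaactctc
The motif was in 1.73% of all promoters, in 7 of 176 genes higher by at least 4 (3.98%) and in 3 of 87 lower by as much (3.45%), and in 2.31% of all genes called higher and 2.13% of those called lower.

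Lists of other tissues were examined for what else the samples might hold. None of 16 skeletal muscle genes was called, with a median of 0.02 (-0.33 with median scaling, which moved the median of all genes to -0.23), and all 16 were lower than in muscle tissue, where 15.1% of all genes were lower. Acta1, skeletal actin, was at 4.60, 9.03, 6.63 and 4.90 in the tumours and at 4.53 and 4.50 in the marrows, and tumours 2 and 3 were the ones that detected it. Myod1, the myogenic regulator, was undetected in all 6 samples. Endothelial genes were higher in 9 of 14 cases with a median of 2.48. Plvap, a protein of fenestrated capillaries, differed by 4.75 ± 0.39, Emcn (endomucin) was at least 10.9-fold higher and Cdh5, the endothelial cadherin, at least 6.05-fold. Pecam1, which platelets and white cells share with endothelium, was not called (0.52 ± 0.31). The mean level of the endothelial list was 7.96 to 8.54 in the tumours and 5.84 and 5.92 in the marrows, and its part in other differences was not tested. Of bone and cartilage genes 1 of 11 was called. Sox9, the cartilage master regulator that many progenitors also use, was at 11.40, 12.34, 12.20 and 11.57 in the tumours and at 4.76 and 4.85 in the marrows, at least 84.7-fold higher (adjusted p 1.80e-05), while Acan and Col2a1, its cartilage targets, were detected in tumour 2 only. Sp7 and Bglap, of osteoblasts, were undetected in all 6 samples and at least 135-fold and 86.7-fold lower than in osteosarcoma (adjusted p 1.83e-10 and 0.000485). Among Schwann cell genes, Pmp22, which fibroblasts also express, was at least 10.2-fold higher, Mbp, which has a blood-cell form, was lower (-2.89 ± 0.33), and Sox10 was undetected in all 6. None of 4 epithelial genes was called, and of 6 adipocyte genes Adipoq was lower (-1.12 ± 0.37), a call lost without tumour 1, 3 or 4 or marrow 1 (-0.61 in the last case).

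Genes of dividing cells were called lower than marrow, a tissue of constant cell division, or were not called, and none was called higher. Every tumour was below both marrows in 11 of 12 mitosis genes and 13 of 16 DNA replication genes, against 29.1% of all genes. Of the 12 mitosis genes 5 were called lower, where 12.7% of all genes were (3 without tumour 1, without marrow 2, with log2 quantile scaling or with the unsubtracted table) with a median of -0.84, and 11 were higher than in muscle, where 20.1% of all genes were higher. Of the 16 DNA replication genes 6 were called lower with a median of -0.95, and 15 were higher than in muscle. Kif11, a spindle motor, was at 5.98, 6.57, 6.59 and 6.88 in the tumours and at 8.17 and 8.54 in the marrows, a difference of -1.85 ± 0.33 (adjusted p 0.000924). Mcm5, a subunit of the replicative helicase, was at 10.78, 10.60, 11.13 and 10.87 in the tumours and at 12.53 and 12.64 in the marrows, a difference of -1.75 ± 0.31 (adjusted p 0.000961). Top2a, a DNA topoisomerase of dividing cells, was not called (-0.60 ± 0.45), nor was E2f1 (-0.27 ± 0.33) or Myc (0.33 ± 0.26, adjusted p 0.346).

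The G1 genes split by member rather than moving together, with 4 higher and 6 lower of 13. Over all genes 15.2% were higher and 12.7% lower. Ccnd1 (cyclin D1) was at 12.23, 12.10, 13.16 and 12.08 in the tumours and at 7.58 and 6.40 in the marrows, a difference of 5.40 ± 0.48 (adjusted p 4.39e-06), or 5.99 and 4.81 without marrow 1 and 2. Ccnd3 (cyclin D3), the form that blood cells favour, was at 11.03, 11.06, 10.64 and 10.85 in the tumours and at 12.94 and 13.19 in the marrows, a difference of -2.17 ± 0.20 (adjusted p 5.73e-06). Ccnd2 was not called (0.19 ± 0.80). The inhibitors divided as well. Cdkn2a, the locus of p16 and Arf, was at 8.09, 9.75, 8.53 and 8.19 in the tumours and at 4.55 and 4.48 in the marrows. By this probe, which neither marrow detected, it was at least 8.98-fold higher (adjusted p 1.11e-05), and its other probes differed by 1.66 to 2.72. It was 1.42 ± 0.33 above osteosarcoma (adjusted p 0.0185). Cdkn2b, its neighbour encoding p15, was at least 18.1-fold higher (adjusted p 0.00103), or 27.4-fold without tumour 4. Cdkn1c (p57), an imprinted inhibitor, was at 13.44, 11.29, 12.56 and 13.30 in the tumours and at 7.84 and 7.94 in the marrows, a difference of 4.76 ± 0.98 from marrow and 4.00 ± 0.80 from osteosarcoma (adjusted p 0.00846). Cdkn2d (p19) and Cdkn1b (p27) were lower, at -2.74 ± 0.22 and -1.21 ± 0.18. Rb1, the retinoblastoma gene, was at 8.42, 8.31, 8.44 and 7.69 in the tumours and at 10.09 and 10.21 in the marrows, a difference of -1.93 ± 0.44 (adjusted p 0.00454) with tumour 4 the lowest.

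Of 17 p53 target genes 4 were higher, where 15.2% of all genes were, and 2 lower, where 12.7% were. The fit to the 6 arrays alone gave 5 higher and 4 lower. The median was -0.25, or 0.07 with the stricter detection filter and 0.01 without marrow 2. Cdkn1a (p21) was at 9.06, 8.98, 8.81 and 9.19 in the tumours and at 8.25 and 8.77 in the marrows, a difference of 0.50 ± 0.94 (adjusted p 0.725). Mdm2, the ligase that degrades p53, differed by -1.11 ± 0.26 (adjusted p 0.00623) and lost its call without marrow 1 (adjusted p 0.0559). Phlda3, which restrains the kinase Akt, was at least 5.57-fold higher, Plk2 differed by 2.88 ± 0.39, and Trp53inp1 was lower, -2.22 ± 0.33. Ccng1 was not called (-0.25 ± 0.30). Every sample compared carries the same genotype label, and no recombinase is named. Whether p53 status differs between the tumours and the marrows is therefore unknown, and any such difference could not be told apart from tissue.

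Energy metabolism showed small differences with a few exceptions. For the counts that follow, 27.9% of all genes were called against marrow, 15.2% higher and 12.7% lower. None of 14 oxidative phosphorylation genes was called against marrow, while 12 were lower than in muscle. Of 13 glycolysis genes 3 were called, all of them transporter or hexokinase forms. Slc2a1 (GLUT1) was at 11.23, 10.55, 11.46 and 12.26 in the tumours and at 8.80 and 9.45 in the marrows, a difference of 2.25 ± 0.39 (adjusted p 0.000810), and was 2.32 ± 0.32 above osteosarcoma (adjusted p 0.000977). Slc2a3 (GLUT3), which white cells use, was at 7.50, 6.21, 7.62 and 8.40 in the tumours and at 11.44 and 11.39 in the marrows, a difference of -3.98 ± 0.61. Hk3, the hexokinase of myeloid cells, differed by -4.93 ± 0.37, against -0.10 ± 0.44 for Hk1. Of 10 hypoxia response genes 6 were higher (2 without marrow 2). Ddit4 differed by 2.43 ± 0.53 (adjusted p 0.0595 without marrow 2), and Car9, a hypoxia-induced carbonic anhydrase, was lower only without tumour 4 among the samples left out (-1.38, adjusted p 0.0326) and at -1.13 ± 0.45 was not called with all samples. Of the heat shock genes, Hspb1 was at least 6.78-fold higher and Hsph1 differed by 1.64 ± 0.34. Among the immediate early genes Fos was lower (-3.37 ± 0.50, adjusted p 0.000270) and Jun higher (1.94 ± 0.46, adjusted p 0.0732 without marrow 2). None of 10 interferon response genes was called, with Isg15 undetected in marrow and at least 1.64-fold higher (adjusted p 0.153), although 3 passed in a fit to the 6 arrays alone. Of 8 ribosomal protein genes 2 were higher, but 0 without marrow 1 and 1 without tumour 3 or 4, with median scaling, with the mean of probes, or with background level or replicate number as a block. The median of the list was 0.30, or -0.30 with median scaling.

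Families in which blood cells use one gene and other cells a relative were compared pair by pair. Of 20 such pairs 16 had both genes measured. In 13 the blood-cell gene was lower and the relative higher, and in the other 3 (Rac2 and Rac1, Coro1a and Coro1c, Hk3 and Hk1) the blood-cell gene was lower and the relative was not called. All 20 blood-cell genes were lower with a median of -2.55, where 12.7% of all genes were lower. Of 16 relatives 13 were higher with a median of 1.91, where 15.2% of all genes were higher. The pairs were chosen with earlier results of these data known. Fermt3, the kindlin of blood cells that activates integrins, was at 7.44, 6.97, 7.61 and 7.29 in the tumours and at 8.90 and 9.29 in the marrows. Its relative Fermt2 was at 11.65, 11.27, 11.88 and 11.28 in the tumours and at 5.31 and 5.59 in the marrows. The differences were -1.77 ± 0.26 (adjusted p 0.000215) and 6.07 ± 0.26 (adjusted p 1.53e-08), with no overlap of groups in either gene. Lmnb1, a lamin that proliferating and blood cells use, differed by -2.26 ± 0.49, and Lmna, the lamin of stiff tissues, by 4.84 ± 0.49 (adjusted p 1.28e-05). Of the actin-bundling plastins, Lcp1 was at -2.13 ± 0.24 and Pls3 was at least 7.73-fold higher. Among integrin chains, Itgb2 of white cells was at -2.64 ± 0.24 against Itgb1 at 1.68 ± 0.31, and Itga4 at -1.78 ± 0.24 against the fibronectin receptor chain Itga5 at 3.09 ± 0.38. Hcls1, the cortactin of blood cells, differed by -2.78 ± 0.38 and Cttn, cortactin itself, was at least 2.16-fold higher. In the pair of PI3-kinase genes Pik3cd differed by -2.47 ± 0.30 and Pik3ca was at least 1.48-fold higher (adjusted p 0.0173), a call lost without tumour 3 or 4 (by the size threshold) or marrow 2 (adjusted p 0.153).

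**Figure D4:**
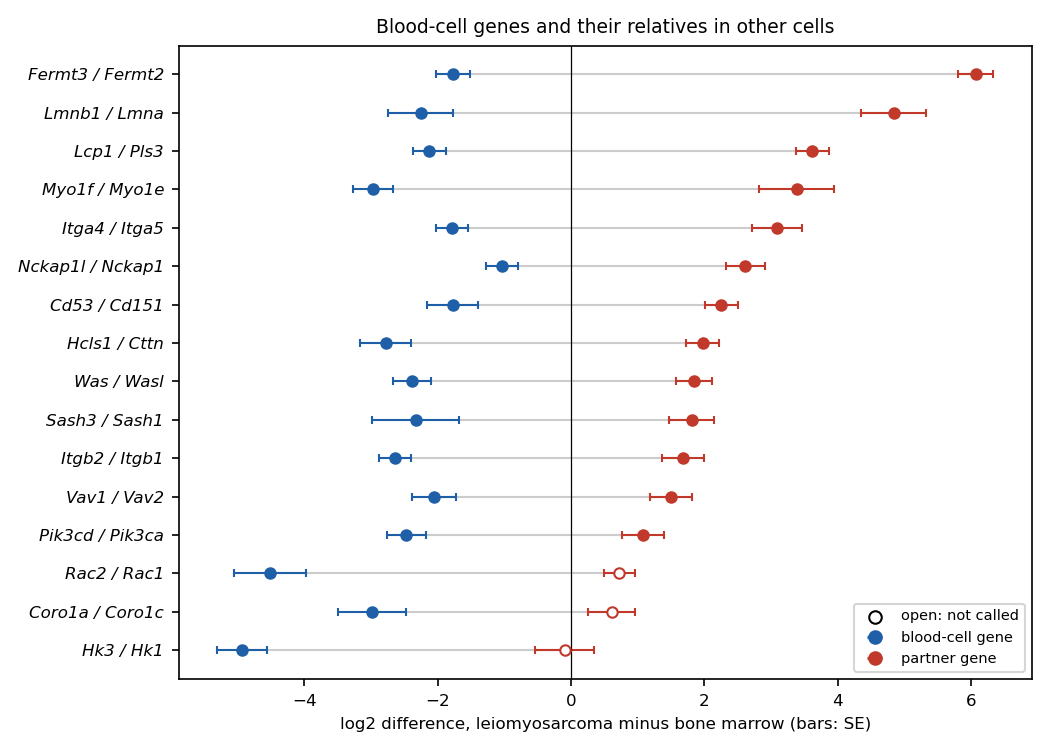
Log2 difference between leiomyosarcoma (n = 4) and bone marrow (n = 2), with SE as bars, for 16 pairs of a blood-cell gene (blue) and its relative (red), open where not called. Every blue point lies left of 0, and 13 red points are called to the right of it, from Fermt2 at 6.07 down to Pik3ca at a fitted 1.08.

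Ligands and the receptors that answer them were compared as 25 listed pairs. Of 18 ligands measured 9 were higher, 1 was lower and 8 were not called, with a median of 1.16. Of 16 receptors measured 5 were higher, 9 were lower and 2 were not called, with a median of -1.30. Over all genes 15.2% were higher and 12.7% lower. Cxcl1, a neutrophil-attracting chemokine, was at 7.89, 10.76, 8.35 and 9.57 in the tumours and at 4.60 and 4.49 in the marrows. It was at least 12.7-fold higher than marrow and 3.59 ± 0.51 above osteosarcoma (adjusted p 0.00118), while its receptor gene Cxcr2 was undetected in all 4 tumours. Ccl2 and Ccl7, which attract monocytes, were at least 11.7-fold and 67.0-fold higher than marrow, and 3.30 ± 0.47 and 3.19 ± 0.62 above osteosarcoma (adjusted p 0.00119 and 0.00760). Ccl7 was at 10.91, 12.86, 11.15 and 11.24 in the tumours and at 4.74 and 4.54 in the marrows, and tumour 2 was the highest in both chemokines. The macrophage growth factors rose together with their shared receptor Csf1r. Csf1 was at 9.37, 8.84, 9.35 and 9.39 in the tumours and at 6.37 and 4.79 in the marrows, a difference of 3.65 ± 0.41, or 4.45 and 2.86 without marrow 1 and 2. Il34, the second ligand, was at 7.86, 7.65, 8.49 and 8.26 in the tumours and at 5.01 and 4.80 in the marrows. It was at least 6.02-fold above marrow and 3.05 ± 0.24 above osteosarcoma (adjusted p 1.25e-05), whereas Csf1 was -0.19 against osteosarcoma (adjusted p 0.782). Cxcl12, which retains cells in marrow, was at 10.89, 10.07, 10.64 and 9.83 in the tumours and at 10.36 and 9.98 in the marrows and was not called (0.19 ± 0.94), while its receptor Cxcr4 was lower (-2.26 ± 0.29, adjusted p 7.85e-05). Selplg, a selectin ligand on white cells, was the 1 lower ligand (-3.30 ± 0.49). The pair Pdgfa and Pdgfra, and the pair Gas6 and Axl, were higher on both sides.

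Genes of the embryo and imprinted genes were higher in 7 of 9 cases with a median of 3.69. Crabp1, which binds retinoic acid, was at 11.68, 11.01, 12.88 and 10.95 in the tumours and at 4.74 and 4.74 in the marrows. Neither marrow detected it, it was at least 71.3-fold higher (adjusted p 3.73e-07), and it was at least 84.4-fold above osteosarcoma (adjusted p 1.10e-06) and 64.8-fold above muscle (adjusted p 1.30e-06), neither of which detected it. Dlk1, a membrane protein of precursor cells, was at 13.32, 9.54, 12.35 and 11.49 in the tumours and at 6.64 and 8.25 in the marrows. It differed by 4.24 ± 0.84 (adjusted p 0.00195), or 3.43 and 5.04 without marrow 1 and 2 and 4.95 without tumour 2, and it was 6.12 ± 0.68 above osteosarcoma (adjusted p 0.000250). Igf2bp3, an oncofetal RNA-binding protein, was at least 4.14-fold higher, and Mest at least 7.13-fold. Igf2 was at 13.01, 13.24, 8.03 and 7.41 in the tumours and at 5.30 and 5.16 in the marrows. Tumours 1 and 2 were more than 4 log2 units above tumours 3 and 4, which were in turn above both marrows. Neither marrow detected it, and it was at least 30.9-fold higher (adjusted p 0.0279), or 53.6-fold without tumour 3 and 61.9-fold without tumour 4. The call was lost without tumour 1 or 2 (17.0-fold and 16.1-fold, adjusted p 0.0613 and 0.0585) or without either marrow (adjusted p 0.121 and 0.137). With background level as a block, so on tumours 1 and 2, the adjusted p was 0.000392. The 2 tumours with high Igf2 are also those with the low array background, and the 2 properties cannot be told apart.

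Some of the rises over marrow were also rises over muscle and osteosarcoma. A call of higher than marrow, muscle and osteosarcoma was made for 244 genes (2.08% of all tested), and 42 genes of the lists and pairs were among them. By role these included the matrix genes Fbln2, Lamb1, Lamc1, Vcan and Col18a1, and the proteases and inhibitors Mmp3, Plat, Plau, Timp2 and Ctsl. They also included the factors Twist2, Osr2, Gata6, Meox1, Nr2f2 and Wwtr1, and the secreted signals Ccl2, Ccl7, Cxcl1, Il34, Vegfc, Igfbp6 and Wnt5a. Crabp1 and Crabp2, the macrophage genes Apoe, Fcrls and Mrc1, and the cell cycle inhibitors Cdkn1c and Cdkn2a were also among them, with Apoe at 5.62 ± 0.77 against marrow (6.38 and 4.86 without marrow 1 and 2) and Crabp2 losing its call without marrow 1 (adjusted p 0.130). The remaining genes of the 42 were Axl, Cd34, Cttn, Dlk1, Fzd2, H2-Ab1, Itga5, Plk2, Ror2, Rplp0, Slc2a1 and Vcam1. The 3 comparisons share the leiomyosarcoma samples. Cav1 (caveolin 1), a membrane scaffold named among the largest rises over marrow, was at 11.86, 11.44, 12.22 and 12.79 in the tumours and at 4.51 and 4.50 in the marrows, at least 97.2-fold higher, and had mean levels of 10.48 in muscle and 9.09 in osteosarcoma.

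The 4 tumours differed among themselves. Tumour 4 had the highest red cell genes, 14.68 for Hba-a1, 8.02 for Alas2 and 7.86 for Slc4a1. Tumours 2 and 3 had mast cell proteases that tumours 1 and 4 lacked. Cpa3, mast cell carboxypeptidase, was at 4.77, 10.67, 8.83 and 4.67 in the tumours and at 9.98 and 9.44 in the marrows, so the tumours lay on both sides of the marrow levels. It was not called (-2.48 ± 1.47, adjusted p 0.215), but was lower without tumour 2 (-3.62, adjusted p 0.0351). Tpsb2, a tryptase, was at 4.69, 8.96, 7.05 and 4.72 in the tumours and at 4.91 and 4.83 in the marrows, and Mcpt4, a chymase, was at 4.77, 8.48, 6.94 and 4.45 in the tumours and at 4.54 and 4.65 in the marrows. Both were undetected in tumours 1 and 4 and in the marrows, and neither was called (adjusted p 0.313 and 0.284). These proteases were named after their values were seen. Tumour 2 also had the highest skeletal actin, Acta1 at 9.03, the lowest Igfbp5 at 7.89 against 14.44 in tumour 1, and the highest Mdk (midkine) at 12.33 against 6.87 in tumour 1. Neither Igfbp5 (2.80 ± 1.27) nor Mdk (3.24 ± 1.47) was called, with adjusted p of 0.108 and 0.108, but Igfbp5 was higher without tumour 2 (4.02, adjusted p 0.00194) and Mdk without tumour 1 (4.34, adjusted p 0.0193). The mean level of the list of eosinophil, basophil and mast cell genes was 4.97, 7.28, 6.32 and 4.83 in tumours 1 to 4, and what part of tumour 2 was mast cells or muscle was not tested.

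**Figure D5:**
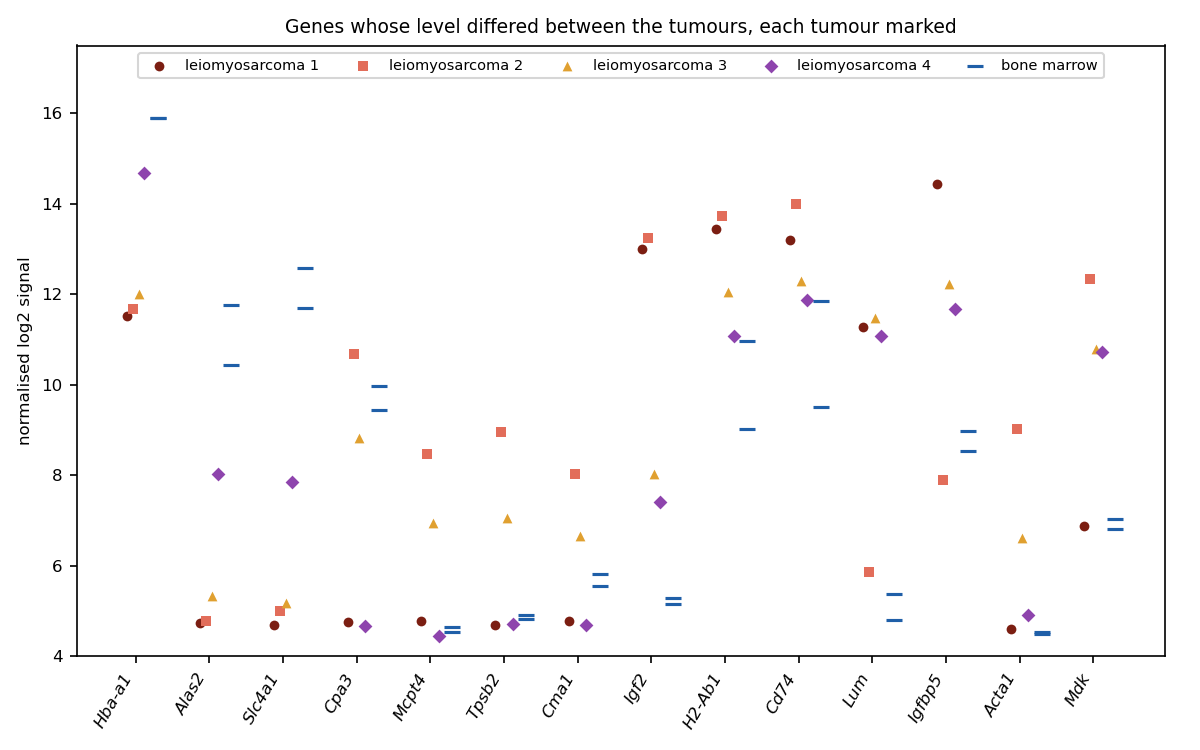
Normalised log2 signal of 14 genes with each leiomyosarcoma marked by its own symbol and the 2 bone marrows as blue dashes. Tumour 4 leads in Hba-a1, Alas2 and Slc4a1, tumours 2 and 3 in Cpa3, Mcpt4, Tpsb2 and Cma1, tumours 1 and 2 in Igf2 and H2-Ab1, and tumour 2 is lowest in Lum and Igfbp5.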

How the data were processed

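RNA from 12 fresh frozen mouse samples was extracted with Trizol, amplified and biotinylated with the Ambion MessageAmp kit and hybridised to one-colour Illumina bead arrays, per the labels' protocols. The authors deposited a signal intensity per probe, a mean bead brightness with a background already subtracted, together with a detection p-value per probe and array, per the file headers. The authors also deposited an unsubtracted intensity table that differed from the first by 1 constant per array (81.2 to 110.1 in the arrays compared, within 0.00969). No source used here names the scanner software, and array signals carry no read depth, so the number of arrays limits the precision.

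Intensities were background-corrected from the detection p-values, quantile normalised and put on the log2 scale with limma's neqc (limma 3.58.1, R 4.3.3, offset 16). Probes with a detection p under 0.05 on at least 2 arrays were kept, and the brightest probe stood for a gene, a choice that mattered for the 4323 genes with several. Of 45281 probes 34885 had 1 gene symbol in the platform annotation, 18 had several and 10378 were not named here. Near-identical gene copies that share a probe cannot be told apart. Group means were fitted to all 12 arrays with lmFit and eBayes (8 residual and 3.63 prior degrees of freedom). The fit was tested on simulated data for leiomyosarcoma against bone marrow with 11754 genes, where it recovered 79% of 100 planted changes of 2 log2 and 96% of 100 of 4 log2 and made 11 false calls. Where the probe standing for a gene was undetected on every array of a group, that group was set, per array, at the lowest detected signal or the probe's own signal where that was higher, in each of the comparisons with marrow, muscle and osteosarcoma.

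The comparison, the gene lists, the pairs and the motifs were chosen with earlier results of these data known, so counts over them describe and do not test. Genes were named by a rule: the 8 largest rises and 8 largest falls among called genes without overlap, up to 4 called members of each list and any called member against the list's direction, every pair member, the defining markers of leiomyosarcoma and bone marrow, and 7 cell cycle and p53 genes. Other members were named after their values were seen. Alternatives were another scaling (quantile of log2 signal plus 50, or median), the unsubtracted table, a detection p under 0.01 and no filter. The mean of a gene's probes, background level as a block, the low-background arrays alone, the 6 arrays alone and a replicate block were also fitted. Each tumour and each marrow was left out in turn. Promoter sequences came from RefSeq (GRCm38.p6), matched by symbol for 9463 genes and not used for 2291. Figures were drawn with matplotlib 3.10.9 under Python 3.11.15, from tables made with pandas 2.3.3. The genes Trp53, Mki67 and Cd79a were not analysed here.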

Additional observations from a re-analysis of the deposited data

Results flagged for a closer look

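In 14 of 217 named genes the highest or lowest tumour stood apart from the other 3 by Dixon's test for a group of 4 samples, a test that chance passes in about 1 of 20 groups. Tumour 2 gave 6 of them. It was the highest for Ccl2 (10.39) and Ccl7 (12.86), monocyte-attracting chemokines, and for Vpreb3 (5.03), a pre-B-cell gene undetected in every tumour. It was the lowest for Mrc1 (10.28), the macrophage mannose receptor, for Csf1 (8.84), a macrophage growth factor, and for Ikzf1 (7.70), the Ikaros gene. Tumour 4 gave 5. It was the highest for Hba-a1 (14.68), an alpha-globin gene, and for Slc4a1 (7.86), the band 3 gene, and the lowest for Jag1 (5.40), a Notch ligand, Rb1 (7.69) and Sash3 (6.46), a lymphocyte adaptor. Tumour 3 stood apart for Ccnd1 (13.16), cyclin D1, where it was the highest, and for Icam1 (6.67), an adhesion molecule, where it was the lowest. Tumour 1 was the lowest for Csf3r (6.03), the granulocyte colony-stimulating factor receptor, within a narrow band.

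Probes with no gene symbol were outside every comparison of genes. Of 3370 such probes that were detected, 334 were higher and 458 lower in leiomyosarcoma than in bone marrow, with differences reaching 7.64 and -9.41 on the log2 scale.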

How the results depend on the processing

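Against bone marrow, 1788 genes were higher and 1488 lower, and no alternative changed either count by over 1.5 times or turned the sign of any of the 324 called genes of the lists and pairs. The unsubtracted table gave the fewest calls (1275 higher and 1040 lower), and the 6 arrays alone the most higher ones (1855). Median scaling moved the median of all genes to -0.23 and the share of calls that were higher to 47.6%. Leaving out each sample in turn gave 1295 to 1778 higher and 1202 to 1494 lower, with the fewest without bone marrow 2, where the lone marrow is assumed to vary like the other groups. Against muscle the loss of a tumour or a marrow gave 2279 to 2341 and 1724 to 1787, and against osteosarcoma 385 to 532 and 289 to 341. No muscle or osteosarcoma sample was left out, so these ranges do not show how far those counts rest on a single muscle or osteosarcoma sample. The main settings gave 2358 genes higher and 1778 lower than muscle. Median scaling turned that balance, with 1793 higher and 2406 lower, and the unsubtracted table gave 1670 and 1348. Against osteosarcoma the unsubtracted table gave 333 higher (510 otherwise) and 242 lower (389 otherwise). Tumours 1 and 2 alone, the low-background arrays, gave 340 higher and 232 lower. That comparison has fewer samples, and it sets low-background tumours against osteosarcomas that all had a high background. Background level and tumour type cannot be told apart in it. The cause was not tested for either setting.

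Of the 324 called list and pair genes, 65 lost their call without some 1 sample, 28 with background level as a block, 17 with median scaling and 40 with the unsubtracted table. The replicate numbers are shared across groups, but same-numbered samples did not deviate together (correlations of 0.0568 and 0.0161 over 2 pairs). With a replicate block 1657 genes were higher and 1442 lower, and 18 of the 324 lost their call. Against muscle the replicate block gave 2233 and 1684, and against osteosarcoma 492 and 381. Only 2 marrow arrays, and a background that splits the tumours into pairs, limit the precision, and genes near the detection limit have only a bound in the group that lacks them.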
